A study of Mus musculus with 83 samples.

Results

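In differentiating brown preadipocytes, 112 of the 11144 genes listed in each culture table (1.01%) peaked only at day 2, shortly after induction of the fat cell programme. They were chosen by their own deposited expression values, FPKM (fragments scaled for transcript length and library size), with 1 library at each of days -3, 0, 2 and 7. On the scale of log2(FPKM + 1), a member was at least 1 (2-fold) higher at day 2 than at day 0, at least 1 lower at day 7 than at day 2, and less than 1 apart between day -3 and day 0. The day 2 peak is therefore the criterion and not a result, and no test of it was made. Both steps share the day 2 library, so a value high there by chance would enter both. A total of 124 genes met the criterion, of which 12 were left out by symbol: Adh1, Agt, Aldh1a1, Aldh1a7, Cebpd, Igf2, Igfbp2, Lhx8, Prg4, Serpina3f, Serpina3m and Serpina3n.

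The cells were Pparg flox/flox preadipocytes (C57BL/6J) isolated from newborn interscapular brown fat and immortalized by a retrovirus that carries the SV40 large T antigen, and all 4 culture libraries share these alleles and the antigen. No Cre is named in the labels of these libraries, and the sources used here do not say whether the line is 1 clone or a pool. Day -3 is the proliferating state, day 0 the confluent state, day 2 the immature adipocyte and day 7 the mature adipocyte. The medium given at day 0 held dexamethasone (2 µg/ml), IBMX (0.5 mM), indomethacin (0.125 mM), T3 (1 nM) and insulin (0.02 µM). From day 2, and again at days 4 and 6, the cells received insulin and T3 without the other agents, so the day 2 library followed the full mixture and the day 7 library its withdrawal. Time in culture and the change of medium cannot be told apart. Another library, from interscapular brown adipose tissue of C57BL/6J mice aged 16 weeks, was not used to choose the genes and is in RPKM. The other 78 of the 83 samples were not analysed here.

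Adipogenesis in culture is started by a mixture of hormones and drugs. Dexamethasone activates the glucocorticoid receptor, IBMX blocks phosphodiesterases and so raises cAMP, and indomethacin inhibits cyclooxygenases and can activate PPARG. The first factors to respond include the C/EBP proteins, which are followed by PPARG and C/EBPA, the factors that maintain the lipid storage genes of the mature fat cell.

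The members held 1567, 1384, 6147 and 1951 FPKM in sum at days -3, 0, 2 and 7, which was 0.425%, 0.434%, 1.96% and 0.582% of each library's summed FPKM. Their median level was 2.98, 4.01, 24.3 and 5.95 FPKM, while the median of all listed genes stayed between 12.2 and 13.4 FPKM. The typical member was thus below the middle of the transcriptome before induction, above it at day 2 and below it again at day 7. The log2 difference from day 0 to day 2 ran from 1.01 to 4.98 with a median of 1.91, and that from day 2 to day 7 from -3.86 to -1.02 with a median of -1.61. All 112 had their highest value at day 2, which the criterion fixes. It also favors a day 2 level above that of day -3, and 104 members were at least 2-fold higher at day 2 than at day -3.

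Among all listed genes, 5.94% stood at least 2-fold above day 0 at day 2 and 10.3% as far below it. From day 2 to day 7, 9.21% were higher and 4.92% lower, and 84.1% lay within 2-fold between day -3 and day 0. Of the genes higher at day 2, whatever their first step, 24.5% were at least 2-fold lower at day 7. Since the criterion used these steps, nothing is read from the members' own share in them. The shares over all genes are also the background for the counts within gene lists below, which are small and were not tested. A larger set of 407 genes had the same first step and the same difference at day 2 but was not 2-fold lower at day 7. They are called sustained genes here and serve as the closest comparison. Unlike for the members, no symbols were left out of this set.

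**Figure D1:**
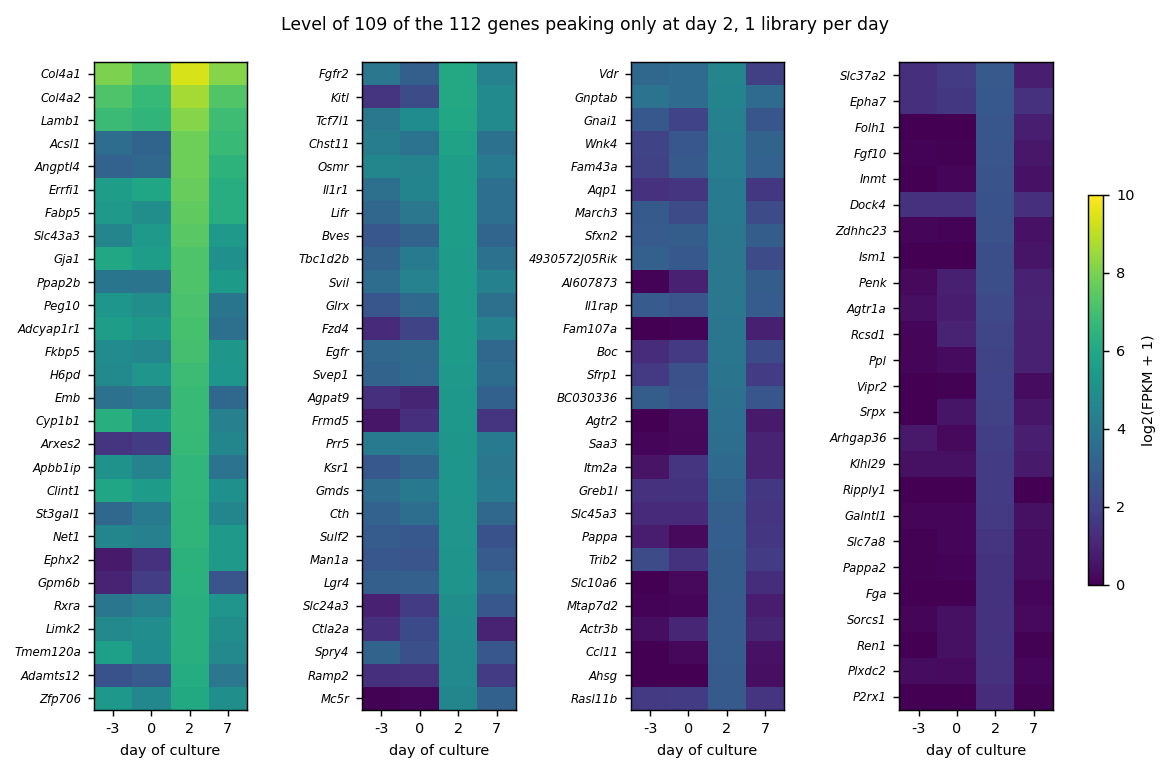
Level of 109 of the 112 members as log2(FPKM + 1) (color) in the libraries of days -3, 0, 2 and 7 (columns), with genes in rows ordered by their day 2 value and 1 library per day. The day 2 column is the brightest in every row, from 673 FPKM for Col4a1 at the top to 1.39 FPKM for P2rx1 at the bottom.

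The libraries also differed in cell type markers. The 8 adipocyte marker genes with values summed to 39.4, 109.9, 5208 and 6135 FPKM at days -3, 0, 2 and 7, and the 5 brown adipocyte markers with values to 0.341, 1.99, 2.38 and 149 FPKM, with Ucp1 and Cidea listed at 0 at days -3 and 0. Smooth muscle and pericyte markers (8 of 10 with values) summed to 7617, 1076, 387 and 395 FPKM. Markers of skeletal muscle (2 of 10 with values), endothelium (1 of 9), macrophages (2 of 13), lymphocytes and mast cells (1 of 12) and nerve (3 of 8) summed to at most 7.08, 1.88, 5.44, 4.80 and 53.7 FPKM in any library. No marker gene is a member, and none of the 7 lists other than the adipocyte list held a gene at least 2-fold higher at day 2. How far these shifts in markers bear on the members' values was not tested. In bulk RNA, fewer cells of a type and less RNA per cell cannot be told apart. Values below are in the order of days -3, 0, 2 and 7 unless days are named, and differences are of log2(FPKM + 1), which understates the differences of genes with low values.

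Basement membrane genes were the most abundant members. Type IV collagen and laminin form the sheet that surrounds each adipocyte. Col4a1, which encodes a chain of type IV collagen, was at 260.3, 154, 673 and 287 FPKM. Col4a2, which encodes its partner chain, was at 152, 103, 402 and 156 FPKM. Lamb1, a laminin beta chain, was at 110.3, 92.7, 286 and 119 FPKM. All 3 were already abundant in preadipocytes, were lower at day 0 than at day -3, and at day 7 had returned to within 2-fold of either earlier day. The list of matrix and remodeling genes did not move this way as a whole: of 88 with values, 15 were higher and 30 lower at day 2, and the median log2 difference was -0.22, against -0.01 over all genes. Of its 12 basement membrane genes with values, 6 were higher and 1 lower at day 2, with a median of 0.89. From day 2 to day 7, 5 of the 12 were lower and 2 higher. Of the 6 higher at day 2, 4 were among the lower ones, beside 24.5% of all genes higher at day 2.

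Col4a1 and Col4a2 are neighbours that face away from each other on the same chromosome, a known divergent pair with a shared promoter region. They formed 1 of 2 pairs of adjacent genes among the members, the other being the cytokine receptor genes Osmr and Lifr, whose starts lie much farther apart. Other members act on the matrix. Adamts12, a secreted metalloprotease, was at 4.70, 6.22, 71.5 and 14.6 FPKM. Sulf2, which removes sulfate groups from heparan sulfate and so alters growth factor binding, was at 6.57, 5.76, 35.9 and 4.73 FPKM. Svep1, a large extracellular adhesion protein, was at 8.13, 9.57, 40.8 and 10.7 FPKM. Sulf2 ended lower than it began, whereas Adamts12 kept part of its increase. The 2 remaining matrix members, Srpx and Ism1, peaked at 2.85 and 4.32 FPKM.

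A second group receives or makes peptide signals, and many of its genes were close to absent outside day 2. Adcyap1r1, the PACAP receptor, which couples to cAMP, was at 46.2, 37.8, 137 and 12.0 FPKM. Mc5r, the melanocortin 5 receptor, also cAMP-coupled, was at 0.0390, 0.0895, 22.8 and 7.52 FPKM. Ramp2, a partner that gives the calcitonin-like receptor its affinity for adrenomedullin, was at 1.56, 1.67, 25.8 and 2.42 FPKM. The 3 differ in what came before and after: Adcyap1r1 was already high in preadipocytes and its log2 difference from day 0 to day 7 was -1.58, Mc5r was near 0 before induction and still well above that at day 7, and Ramp2 returned to about its starting level. Vipr2, a receptor for VIP and PACAP, peaked at 3.05 FPKM from 0.0517 at day 0. Gnai1, an inhibitory G protein subunit that lowers cAMP, was at 5.71, 3.07, 20.2 and 5.37 FPKM.

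The 3 members of the renin-angiotensin system were under 1 FPKM on every day but day 2. Agtr2, the type 2 angiotensin receptor, was listed at 0 at day -3 and was at 0.196, 11.7 and 0.656 FPKM at days 0, 2 and 7. Agtr1a, the type 1 receptor that mediates most pressor actions, was at 0.319, 0.720, 3.67 and 0.978 FPKM. Ren1, which encodes renin, was at 0.0145, 0.357, 1.73 and 0.0503 FPKM. Renin is among the members closest to the threshold, and only Agtr2 of these passed 10 FPKM. Agt, the gene of the precursor angiotensinogen, met the same criterion and is among the symbols left out. Penk, the enkephalin precursor, was at 0.200, 0.830, 4.24 and 0.868 FPKM.

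Cytokine receptors were expressed before induction, and their day 2 levels lay less far above the earlier ones. Osmr, the oncostatin M receptor subunit, was at 23.2, 21.1, 47.4 and 16.6 FPKM. Lifr, the receptor subunit for leukemia inhibitory factor, was at 8.79, 14.5, 46.6 and 11.7 FPKM. Il1r1, the signalling receptor of interleukin 1, was at 11.8, 21.6, 46.9 and 11.5 FPKM. Each of the 3 stood at about the same level at day 2 and was lower at day 7 than at day 0. Il1rap, the accessory chain that IL1R1 needs for signalling, was at 6.37, 5.24, 14.6 and 6.61 FPKM. Ccl11, the chemokine eotaxin, was the only ligand of the group and was at 0.0210, 0.169, 6.43 and 0.413 FPKM. On the cytokine and STAT list, 6 of 35 genes with values stood at least 2-fold above day 0 at day 2 and 6 below it. Of the 6 higher genes, 4 were lower at day 7, beside 24.5% of all genes higher at day 2, and these 4 are members.

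Growth factor signalling held 10 members, among them receptors, ligands and inhibitors. Fgfr2, whose epithelial splice form binds FGF10, was at 14.6, 7.18, 65.0 and 20.9 FPKM. Egfr, the epidermal growth factor receptor, was at 8.90, 10.0, 43.5 and 9.40 FPKM. Epha7, an ephrin receptor, was at 1.52, 2.10, 5.69 and 1.68 FPKM. The dip of Fgfr2 at day 0 lies just inside the limit set for the first step, and Fgfr2 was the 1 member lost when the libraries were rescaled by median ratios. Among ligands, Kitl, the stem cell factor that binds KIT, was at 1.89, 3.98, 64.1 and 26.0 FPKM. Fgf10, a mesenchymal growth factor needed for fat development, was at 0.0577, 0.0360, 5.29 and 0.556 FPKM. Kitl retained 36.6% of its day 2 increase at day 7 and Fgf10 9.89%.

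Inhibitors and scaffolds of the same receptors were also members. Errfi1, which binds and inhibits the EGF receptor kinase and is glucocorticoid-inducible, was at 47.6, 59.8, 205 and 73.2 FPKM. Spry4, a Sprouty inhibitor of RAS-ERK signalling, was at 8.13, 4.44, 26.6 and 5.56 FPKM. Ksr1, a scaffold of the same cascade, was at 5.71, 8.47, 37.6 and 14.6 FPKM. Errfi1, Spry4 and Ksr1 ended above their day 0 levels but within 2-fold of them. The log2 differences from day 0 to day 7 were 0.29, 0.27 and 0.72. Pappa and Pappa2, proteases that cleave IGF-binding proteins, peaked at 6.98 and 1.80 FPKM. Of the 37 growth factor pathway genes with values, 7 stood at least 2-fold above day 0 at day 2 and 3 below it, with a median of -0.19. From day 2 to day 7, 12 were lower and 4 higher. Of the 7 that were higher at day 2, 6 were among the lower ones, beside 24.5% of all genes higher at day 2.

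WNT pathway genes supplied 4 members. Fzd4, a Frizzled receptor, was at 1.36, 3.19, 44.0 and 20.2 FPKM. Lgr4, the R-spondin receptor that strengthens WNT signalling, was at 7.25, 7.46, 35.0 and 8.71 FPKM. Sfrp1, a secreted WNT inhibitor, was at 2.25, 4.64, 13.2 and 2.47 FPKM. Fzd4 kept 41.6% of its increase at day 7, one of the highest shares among the members, while Sfrp1 ended below its day 0 level. Tcf7l1, a largely repressive TCF factor, was at 15.3, 28.1, 60.9 and 26.1 FPKM. Boc, a hedgehog co-receptor, was at 1.41, 2.29, 14.1 and 3.81 FPKM. Of the 27 WNT pathway genes with values, 5 were at least 2-fold higher at day 2, of which 4 are these members, and 6 were lower. The median log2 difference of the whole list was 0.00.

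**Figure D2:**
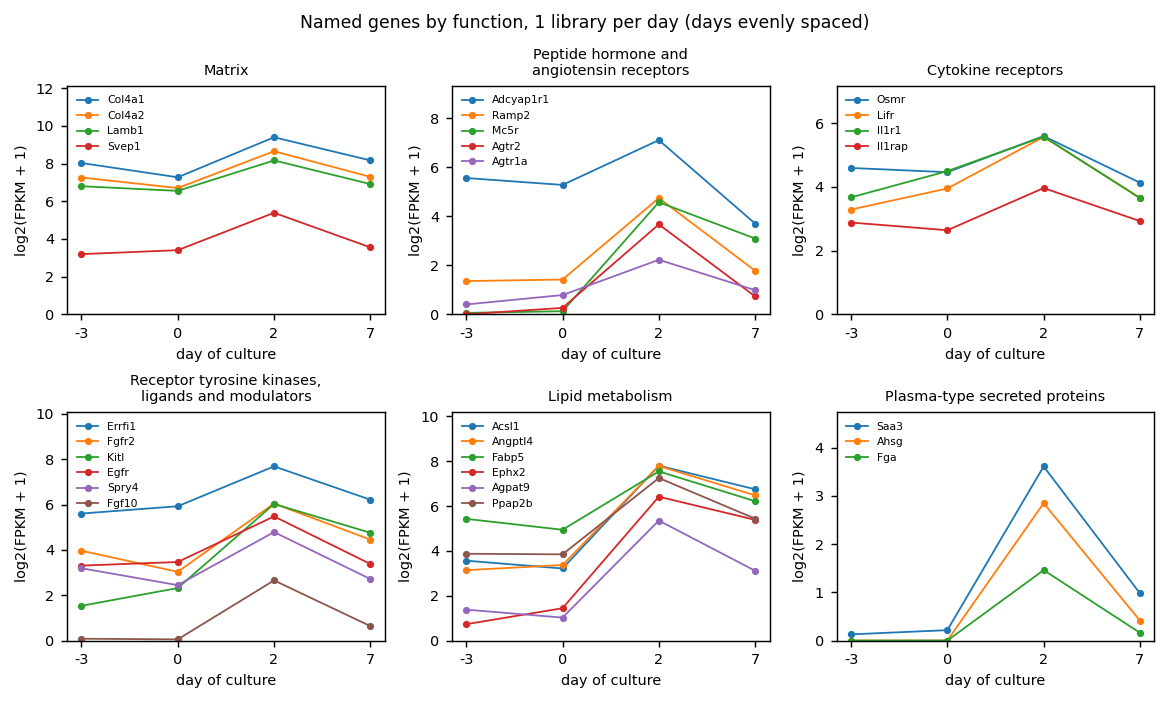
Log2(FPKM + 1) of named members by function against day of culture (days evenly spaced, 1 library per point, vertical scales differ between panels). Adcyap1r1 ends at 12.0 FPKM, under its day 0 level of 37.8, whereas Acsl1 and Angptl4 stay at 106 and 88.1 FPKM and the plasma-type proteins return to under 1 FPKM.

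Targets and receptors of steroid hormones formed a further group. Fkbp5, a chaperone partner of the glucocorticoid receptor and a standard marker of its activity, was at 27.1, 23.6, 133 and 37.9 FPKM. Fam107a, a stress- and glucocorticoid-inducible actin regulator, was at 0.0210, 0.0637, 14.3 and 0.829 FPKM. H6pd, which supplies the NADPH used by 11-beta-hydroxysteroid dehydrogenase 1 to make active glucocorticoid, was at 26.1, 35.7, 113 and 37.0 FPKM. Fkbp5 and H6pd were expressed before induction and returned to near that level, whereas Fam107a was close to 0 at both earlier days. Rxra, the retinoid X receptor that pairs with PPARG, was at 14.1, 19.5, 78.2 and 36.3 FPKM. Vdr, the vitamin D receptor, was at 9.10, 10.2, 22.4 and 2.70 FPKM. Cyp1b1, a cytochrome P450 that oxidizes steroids and xenobiotics, was at 75.9, 41.0, 105 and 19.7 FPKM. Vdr and Cyp1b1 ended at least 2-fold below day 0, while Rxra kept 28.6% of its increase.

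Of 37 glucocorticoid-responsive genes with values, 24 stood at least 2-fold above day 0 at day 2 and 1 below it, the median of the log2 differences being 1.76. From day 2 to day 7, 9 were lower and 10 higher, with a median of 0.10 against 0.02 over all genes, after dexamethasone had been withdrawn. Of the 24 genes higher at day 2, 7 were at least 2-fold lower at day 7, beside the 24.5% found over all genes higher at day 2. The members among the 7 are Fkbp5, Angptl4, Errfi1 and Fam107a. The list for cAMP and CREB differed: 5 of 25 were higher at day 2 and 2 lower, with a median of 0.19, and Adcyap1r1 was its 1 member. Of 14 thyroid hormone-responsive genes, 2 were higher and 2 lower at day 2, with a median of 0.00, then 8 were higher and 0 lower at day 7, and none was a member. T3, unlike dexamethasone, was present from induction to day 7.

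Among the functional groups, lipid metabolism genes had the largest median log2 difference at day 2, 4.33, and kept the largest median share of the FPKM gained, 27.9%, at day 7. Acsl1, which activates long-chain fatty acids, was at 10.8, 8.28, 222 and 106 FPKM. Angptl4, a secreted inhibitor of lipoprotein lipase, was at 7.81, 9.33, 219.7 and 88.1 FPKM. Ephx2, soluble epoxide hydrolase, was at 0.659, 1.72, 84.4 and 40.7 FPKM. At day 7 these retained 45.9%, 37.4% and 47.1% of the FPKM gained between day 0 and day 2, and the log2 difference of Ephx2 at day 2, 4.98, was among the highest of all members. Fabp5, a fatty acid carrier, was at 42.0, 29.7, 186 and 73.2 FPKM. Ppap2b (Plpp3), a lipid phosphate phosphatase, was at 13.6, 13.4, 151 and 42.3 FPKM. Agpat9 (Gpat3), an acyltransferase of triglyceride synthesis, was at 1.60, 1.03, 39.8 and 7.65 FPKM. Of the 7 genes of this group, 6 were at least 2-fold higher at day 7 than at day 0, against 16 of all 112 members.

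Most PPARG-type adipocyte genes did not share the peak. Of 33 with values, 24 were at least 2-fold higher at day 2, with a median of 2.44, and from day 2 to day 7, 21 were higher and 3 lower. The 3 lower ones are the members Acsl1, Angptl4 and Fabp5. The adipocyte markers likewise were higher at day 2 for 8 of 8 and higher again at day 7 for 6 of 8. Of the 66 transcription factors of adipogenesis with values, 18 were higher and 8 lower at day 2 (median 0.27), and 3 of the 18 were lower at day 7, with Rxra the 1 member.

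The members that encode plasma-type secreted proteins, best known from liver, were under 1 FPKM on every day but day 2. Saa3, an acute-phase apolipoprotein made by fat cells and macrophages, was at 0.0929, 0.161, 11.2 and 0.970 FPKM. Ahsg, which encodes fetuin A, was listed at 0 at days -3 and 0 and reached 6.19 FPKM at day 2, with 0.332 left at day 7. Fga, the fibrinogen alpha chain, was likewise listed at 0 before induction and then held 1.75 and 0.118 FPKM. These levels are low. Of 25 acute phase and complement genes with values, 13 were higher at day 2 and 2 lower, with a median of 1.00. Of those 13, 3 were lower at day 7, beside 24.5% of all genes higher at day 2, and all 3 are members.

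The promoters of Saa3, Ahsg and Fga in the RefSeq table (GRCm38.p6, whereas the expression files were made on mm9) each held a C/EBP-type motif, TTGCNNAA on either strand. They are shown because these genes were at or near 0 before induction and held the motif in every case. The windows are chr16:22891935-22892014 (plus strand) for Ahsg, chr3:83026013-83026152 (plus strand) for Fga and chr7:46715677-46715796 (minus strand) for Saa3. Each is written 5′ to 3′ on the gene's strand, and capitals mark the motif, with the glucocorticoid receptor half-site AGAACA also in capitals in Ahsg.
Ahsg: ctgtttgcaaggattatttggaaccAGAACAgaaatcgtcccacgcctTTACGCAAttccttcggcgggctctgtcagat
Fga: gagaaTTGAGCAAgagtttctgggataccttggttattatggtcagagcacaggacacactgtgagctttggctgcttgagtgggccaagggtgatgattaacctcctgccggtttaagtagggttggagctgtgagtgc
Saa3: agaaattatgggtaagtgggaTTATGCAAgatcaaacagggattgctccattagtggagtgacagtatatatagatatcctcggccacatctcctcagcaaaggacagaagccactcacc
The C/EBP-type match begins 32 bases before the start of Ahsg, 135 before that of Fga and 99 before that of Saa3, and that of the half-site in Ahsg 55 before. All 3 C/EBP-type matches are on the strand opposite to the gene.

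The cAMP response element, TGACGTCA, was found in the promoters of 2 members. In Errfi1, described above, it lies a short way upstream of a TATA box, TATAAA, also in capitals. Gpm6b, a membrane protein of the proteolipid family, was at 0.974, 2.49, 81.8 and 5.22 FPKM and held it at a similar distance. The windows are chr4:150854970-150855069 for Errfi1 and chrX:166238843-166238942 for Gpm6b, both on the plus strand, with the motifs in capitals.
Errfi1: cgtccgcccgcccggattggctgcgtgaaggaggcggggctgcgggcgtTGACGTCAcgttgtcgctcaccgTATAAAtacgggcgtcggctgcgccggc
Gpm6b: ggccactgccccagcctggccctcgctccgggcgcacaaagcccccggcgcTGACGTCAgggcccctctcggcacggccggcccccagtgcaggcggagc
The element begins 51 bases before the start used for Errfi1, which is the second of its 2 listed starts, and 49 before that of Gpm6b. The glucocorticoid-inducible Fam107a held the half-site AGAACA once on each strand in the second of its 3 listed windows, at chr14:8309780-8309959 on the minus strand, with both matches in capitals.
Fam107a: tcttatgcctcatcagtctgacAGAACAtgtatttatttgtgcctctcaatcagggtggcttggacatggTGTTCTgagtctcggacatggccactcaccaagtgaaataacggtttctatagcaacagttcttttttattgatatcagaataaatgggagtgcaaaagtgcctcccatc
Its matches begin 158 and 110 bases before the start, the nearer one reading as the reverse complement. The listed windows of Fkbp5 and Errfi1, which are also on the glucocorticoid-responsive list, held no AGAACA on either strand.

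Over all members and with both strands searched, the share of windows with a motif lay within or below that of the comparison sets for 6 of the 7 motifs. It lay above them for the C/EBP-type motif by little. The table holds 102 windows of 300 bases (250 before to 50 after a start) for 80 of the 111 members matched by symbol. The half-site AGAACA was in 15.7% of the members' windows, 11.6% of those of sustained genes, 11.9% of those of all culture genes and 19.0% of all 32851 windows. The cAMP element was in 1.96%, 1.69%, 3.11% and 1.79% of the same 4 sets, and the C/EBP-type motif in 11.8%, 10.7%, 8.07% and 10.8%. The nuclear receptor half-site AGGTCA was in 9.80% of the members' windows and 16.3% of all windows, the STAT motif TTCNNNGAA in 5.88% and 8.30%, and the E-box CACGTG in 5.88% and 7.15%. TATAAA was in 9.80%, 9.20%, 6.81% and 13.6% of the 4 sets. This order depended on the strand. On the gene strand alone, AGAACA was in 10.8%, 7.26%, 6.34% and 10.2% of the 4 sets. TATAAA was there in 8.82%, 6.05%, 4.08% and 8.32%, and the C/EBP-type motif in 5.88%, 7.26%, 4.23% and 5.80%. Motifs were searched on both strands, where they may overlap one another, and several windows can belong to 1 gene. A match is a description of the letters in this window, not a bound site.

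Transporters and channels made up 11 members. Slc43a3, a purine base transporter, was at 22.6, 40.4, 175 and 42.0 FPKM. Gja1, the gap junction protein connexin 43, was at 63.5, 47.1, 152 and 31.6 FPKM. Slc24a3, a sodium, potassium and calcium exchanger, was at 0.889, 2.31, 31.0 and 5.54 FPKM. Gja1 was lower at day 7 than at any earlier day, and Slc43a3 was back at its day 0 level. Aqp1, a water channel, was at 1.69, 1.95, 16.4 and 2.12 FPKM. The group's day 2 levels ran from 1.39 FPKM for P2rx1 to 175 for Slc43a3.

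Signalling and cytoskeletal genes (11 members) and glycan or vesicle genes (7) had small median differences at day 2, of 1.40 and 1.52. Apbb1ip (RIAM), a RAP1 effector of integrin activation, was at 34.5, 21.3, 95.6 and 12.9 FPKM. St3gal1, a sialyltransferase, was at 9.04, 17.0, 93.4 and 23.0 FPKM. Both were expressed at all 4 days, and Apbb1ip ended below its day 0 level. Clint1, an adaptor of clathrin-coated vesicles, was at 58.7, 43.7, 94.5 and 31.2 FPKM.

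Among the 29 members placed in no functional group were some of the sharpest peaks. Peg10, an imprinted gene derived from a retrotransposon, was at 36.9, 30.1, 138 and 13.7 FPKM. Emb, which encodes embigin, a partner of monocarboxylate transporters, was at 12.6, 15.0, 105 and 9.40 FPKM. Frmd5, a FERM-domain protein, was at 0.537, 1.55, 38.9 and 1.82 FPKM. Peg10 and Emb ended below their day 0 levels, and Frmd5 close to it. Arxes2, an adipocyte gene induced by PPARG, was at 1.95, 2.31, 102 and 23.2 FPKM. Ctla2a, a cysteine protease inhibitor, was at 1.55, 3.73, 28.4 and 1.02 FPKM, and its log2 difference from day 2 to day 7 was -3.86. Arxes2 and Ctla2a each have a near-identical neighbouring copy, so the split of reads between copies is uncertain. Cth, the enzyme that makes cysteine from cystathionine, was at 7.86, 11.3, 36.3 and 9.35 FPKM. Ripply1, a transcriptional repressor of somite formation, was listed at 0 on every day but day 2, when it was at 2.40 FPKM.

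After the peak, most members came back to about their starting level. At day 7, 91 of the 112 lay within 2-fold of day 0, 16 (14.3%) were at least 2-fold higher and 5 (4.46%) lower, and the median of the log2 differences was 0.21. Over all genes, 12.1% were higher and 12.5% lower with a median of -0.000674, and of the sustained genes 314 of 407 (77.1%) were higher. Against day -3, 20 members (17.9%) were higher and 5 lower at day 7, beside 19.7% and 14.3% of all genes. These counts depend on the pseudocount and the scale: members above day 0 numbered 28 with a pseudocount of 0.1 and 10 with one of 5, and members above day -3 numbered 40 with a pseudocount of 0.1 and 35 with a common total of 1000000 FPKM. For the 30 members under 1 FPKM at days -3, 0 and 7, a place within 2-fold was fixed in advance by the pseudocount. Fam107a, at 0.0637 FPKM at day 0 and 0.829 at day 7, is among them. The criterion used these libraries, so the counts describe the return on this scale and carry no test.

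In FPKM, the median member kept 4.57% of its day 2 increase at day 7. In 75 members less than 10% was left, in 12 more than 25%, and 36 lay below their day 0 level. The highest shares were those of Ephx2 (47.1%), Acsl1 (45.9%), AI607873 (41.6%), Fzd4 (41.6%) and Angptl4 (37.4%). AI607873 belongs to the interferon-inducible Ifi200 family of close copies, and its level is uncertain for that reason. At the other end, Vdr, Slc37a2, Il1r1, Cyp1b1 and Adcyap1r1 undershot day 0 by 60.6%, 46.0%, 39.7%, 33.3% and 26.1% of the increase. The 5 members at least 2-fold below day 0 were Vdr, Cyp1b1, Adcyap1r1, Peg10 and Ctla2a, which share no functional group beyond the pair Vdr and Cyp1b1.

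**Figure D3:**
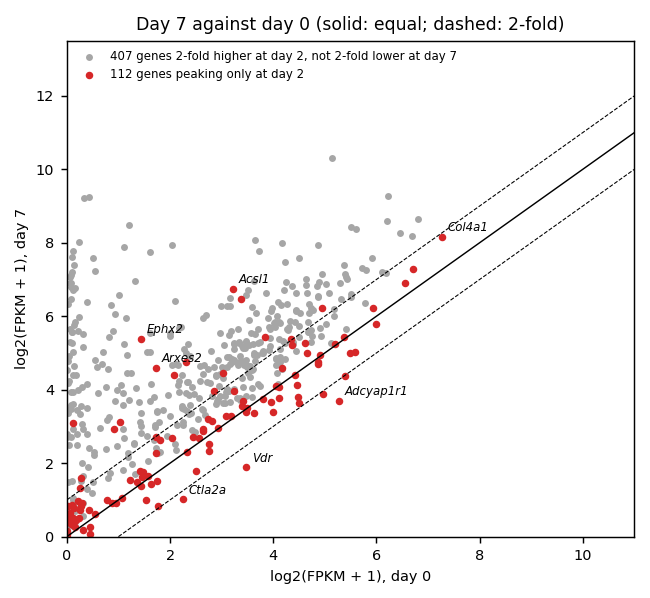
Log2(FPKM + 1) at day 7 against day 0 for the 112 members (red) and the 407 sustained genes (grey), with lines for equality (solid) and 2-fold differences (dashed), 1 library per day. Of the members, 91 lie between the dashed lines, 16 above and 5 below, and 314 sustained genes lie above.

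Members ranged widely in level. At day 2, 23 were under 5 FPKM, 15 between 5 and 10, 41 between 10 and 50, 15 between 50 and 100 and 18 at 100 or more. A total of 30 were under 1 FPKM on each of the other 3 days, and 8 were listed at 0 in a library. Each listed gene had a value of at least 1.00 FPKM in some culture library, so a gene low at the other times was listed only through its peak. Just inside the limits were Ren1, Sorcs1, Arhgap36, Slc37a2 and Gnptab, whose smaller step was between 1.01 and 1.02 on the log2 scale. Just outside were Il31ra, Ada, Fmnl2, Stxbp6 and Rhou, with a smaller step between 0.98 and 0.99. Single libraries give no error by which the genes on either side of the limit could be told apart.

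The tissue library was not used to choose the genes, but the choice bears on the comparison with all genes: the 30 members under 1 FPKM on the other days were listed only through their day 2 value. Of the 110 members with a tissue value, 66 (60.0%) were at 1 RPKM or more, beside 81.4% of the 11001 culture genes with a tissue value and 365 of 404 sustained genes (90.3%). A pseudocount of 5 in place of 1 gives 74 genes, of which 63 are members, and fewer low ones. Of these 74, 58 (78.4%) were at 1 RPKM or more, near the share of all genes. The median was 2.03 RPKM for members, 12.0 for sustained genes and 4.62 for all. Ranked within each library among the same genes, the median member stood at percentile 21.8, 20.9, 71.1 and 29.5 at days -3, 0, 2 and 7 and at percentile 29.2 in the tissue. Sustained genes stood at 31.2, 26.0, 63.5, 72.0 and 76.1. The members' ranks at days 0, 2 and 7 follow from the choice, so a tissue rank under that of day 2 is no finding. From day 7 to tissue, 56 of 110 members (50.9%) ranked lower, beside 48.6% over all genes. The median rank difference was -0.23 percentile points for members and 0.43 over all genes. All genes span every day 7 rank, whereas the median member stood at 29.5, so these figures do not compare genes of like rank. Genes of the same day 7 band are compared below.

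**Figure D4:**
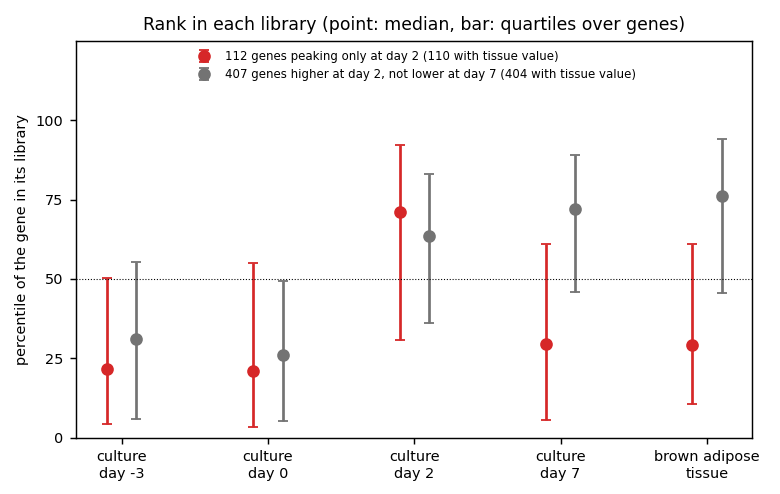
Median percentile rank (points) and quartiles over genes (bars) of the members (red, 110 with a tissue value) and sustained genes (grey, 404) within each of the 4 culture libraries and the tissue library. Members reach a median of 71.1 at day 2 and stand at 29.5 at day 7 and 29.2 in tissue, while sustained genes stand at 72.0 and 76.1.

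The contrast with all genes did not change evenly with level. For the 74 genes chosen with a pseudocount of 5, of which 63 are members, the median tissue percentile was 48.3. In 4 bands of 25 points of day 7 percentile, from lowest to highest, the members (50, 26, 16 and 18 genes) had median tissue percentiles of 11.9, 31.9, 40.6 and 79.98, beside 17.5, 40.3, 60.1 and 83.6 for all genes of the same bands. The members' median was lower in each band, most in the band from 50 to 75. No test was made of these differences, since the tissue has 1 library.

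The members most abundant in tissue were Acsl1 at 402 RPKM, Ephx2 at 111, Gja1 at 83.3, Aqp1 at 79.3 and Angptl4 at 68.1, of which 3 are lipid metabolism genes that kept much of their increase in culture. All 7 lipid metabolism members were at 1 RPKM or more, with a median tissue percentile of 80.5, against 1 of 4 plasma-type genes, with a median of 1.55. Listed at 0 in tissue were 13 members: Agtr2, Ahsg, Arhgap36, Epha7, Fam107a, Fga, Folh1, Mtap7d2, Pappa2, Ren1, Ripply1, Saa3 and Sorcs1. This is 11.8% of the 110, beside 3.08% of all genes and 1.24% of sustained genes, and the low-level members bear on it in the same way. Ramp2 was at 16.3 RPKM, Adcyap1r1 at 1.20 and Fabp5 at 12.4. Col4a1 was at 44.3 RPKM, Col4a2 at 30.2 and Lamb1 at 18.5.

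Other lists held few or no members. BMP and TGF-beta pathway genes (42 with values) were higher at day 2 for 5 and lower for 7, with a median of -0.24 and no member. Steroid, retinoid and xenobiotic metabolism genes (58 with values) were higher for 14 and lower for 8 (median 0.28), and 5 of the 14 were then lower at day 7, of which Cyp1b1 and Ephx2 are members. Of 34 mitotic cell cycle genes with values, 0 were higher and 1 lower at day 2 (median 0.08), and 0 were members, so no mitotic gene on the list shared the 2-fold difference at day 2. In all, 29 members were on any of the lists of signals and functions.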

How the data were processed

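The culture values are FPKM per gene symbol as the authors deposited them, 1 table for each of days -3, 0, 2 and 7, and the tissue values are RPKM per RefSeq transcript as deposited. Build mm9 and the tools TopHat2 2.0.10, Cufflinks 1.0.3, CASAVA 1.8.2 and SICER are named per the submitters' processing notes. The annotation, and which of these made each table, are not given in the sources used here. RNA was mRNA isolated from total RNA, per the labels' protocols. The read depth of each library is unknown, so no interval per value is given.

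Samples were grouped by title, 1 library each, so no p-value was computed and differences are rules of size for single libraries. Differences are of log2(FPKM + 1) on values as deposited, and higher or lower means by at least 1 (2-fold). No filter on low values was set: each of the 112 members has values in all 4 libraries, and none was dropped. The members, the 21 gene lists and the motifs were chosen with earlier results of these data known, and the functional groups after the members were known. The genes named were the members with the highest day 2 level, the largest steps, a place on a list or a neighbour among the members, those nearest the limits, those at both ends of tissue level and of the share kept at day 7, and others by role. A total of 3 members are counted but not reported by name here. Tissue transcripts were matched by accession to RefSeq genes of GRCm38.p6 (28436 of 29082, 97.8%), taking the highest transcript of a symbol. For names and promoters, 111 members matched, 7 of them by a synonym. BC030336 did not match, and it and Ism1 have no tissue value here. Alternatives were other pseudocounts, scalings, filters and fold limits. Computation used Python 3.11.15, pandas 2.3.3 and numpy 2.4.6, with figures by matplotlib 3.10.9.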

Additional observations from a re-analysis of the deposited data

How the results depend on the processing

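The number of members was within 1.5 times the reported 112 with a pseudocount of 0.1 (110), with median-ratio scaling (112), with a common total of 1000000 FPKM (124), with a largest value of at least 5 FPKM (89), without a condition on the first step (148) and with a common total at the mean of the library sums (118, an alternative added after the data were seen). It was 74 with a pseudocount of 5, 328 with 1.5-fold steps and 52 with 3-fold steps. The genes differed more than the counts: those shared with the reported set numbered 87, 111, 89 and 89 for the first 4 of these settings, 63 with a pseudocount of 5 and 103 for the added one, and 50 members were kept under all 6 settings of pseudocount, scale and filter. No rise or fall of a member reversed in 1120 comparisons, and 84 fell short of 2-fold. That none reversed was fixed in advance. A pseudocount cannot change the sign of a step, and the scalings moved libraries against one another by far less than 2-fold. Scaling to 1000000 raises every value and so lessens the weight of the pseudocount.

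Members above day 0 at day 7 numbered 28 with a pseudocount of 0.1 and 10 with one of 5, against 16. Those above day -3 numbered 40 with a pseudocount of 0.1 and 35 with the common total of 1000000, against 20. Sustained genes numbered 248 with a pseudocount of 5, against 407. The share of members at the tissue minimum was 29.1% at 5 RPKM, where all genes had 47.7%. At 1 RPKM it was 78.4% for the genes chosen with a pseudocount of 5. Members lost under a setting include abundant ones: Fgfr2 under median-ratio scaling, and Slc43a3, St3gal1 and Tcf7l1 with the added common total. Ephx2 and Fzd4 were kept under 3 of the 6 settings. Unknown depth limits what can be said of members under 1 FPKM outside day 2. No paired analysis was possible because each time has 1 library.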

Other observations

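Another 36 genes stood 2-fold or more above day 0 at day 2 and had come down by as much at day 7. This count leaves out symbols by the same rule as for the members. The 36 genes also differed by at least 2-fold between day -3 and day 0, so they were not members. Sepp1, which encodes the selenium carrier selenoprotein P, was at 8.76, 87.2, 715 and 294 FPKM at days -3, 0, 2 and 7. Gsn, the actin-severing protein gelsolin, was at 86.1, 174, 584 and 151 FPKM. Nid2, the basement membrane protein nidogen 2, was at 23.8, 76.5, 179 and 29.5 FPKM. Tsc22d3 (GILZ), a standard glucocorticoid target, was at 3.75, 9.98, 71.6 and 25.9 FPKM. These 4 were already higher at confluence and higher again at day 2. Pim3, a survival kinase, dipped first, at 46.9, 13.8, 148 and 61.6 FPKM, as did Fst, the activin inhibitor follistatin, at 7.19, 0.385, 20.9 and 4.44 FPKM. These genes were named after their values were seen.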
